A study of Mus musculus with 3 samples.

Results

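The mast cell and basophil genes described here were 7 genes chosen by name: Fcer1a, Ms4a2, Cpa3, Mcpt8, Tpsb2, Hdc and Gata2. All 7 of the 7 were on the array, with 8 probes among 32683 probes that were assigned to 19712 named genes. The study compared total RNA of 3 tissues of C57BL/6 mice, with 1 array each: adult liver of mice aged 12 weeks, fetal liver at gestation day 13.5, and bone marrow. The wording of the labels leaves unclear whether that adult age also covers the bone marrow donors. Sex, genotype beyond the strain, and the number of animals behind each RNA were not given in the sources used here, and no treatment was named. Each RNA was labelled with 1 dye, Cy3, and read on its own array, so the design has no replicates: every difference below describes 3 RNA samples, and no test, p-value or standard deviation between animals could be given.

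Mast cells and basophils are granule-bearing blood-derived cells of allergic and antiparasite responses. Both carry the high-affinity receptor for IgE, whose crosslinking by antigen empties granules that hold histamine, proteoglycans and proteases. Basophils finish their development in bone marrow and circulate, whereas mast cells leave the blood as progenitors and mature in tissues; the early embryo has its own wave of mast cell progenitors, and the fetal liver is a blood-forming organ at midgestation.

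Of the 7 genes, 5 (Fcer1a, Ms4a2, Cpa3, Mcpt8 and Hdc) were at least 4-fold higher in bone marrow than in fetal liver, where 8.3% of the 14677 genes compared passed the same mark. In the opposite direction, towards fetal liver, 0 of the 7 passed 4-fold, against 9.33% of the genes compared. Against adult liver, 5 of the 6 members that could be compared (Fcer1a, Cpa3, Mcpt8, Hdc and Gata2) were at least 4-fold higher in bone marrow, where 15% of 14245 genes were, and 0 passed the mark towards adult liver, where 18.8% of the genes did. Between the livers, Gata2 alone of the 4 members compared (1 of 4) passed 4-fold towards fetal liver, beside 12.1% of 14186 genes. Towards adult liver the count was 0, beside 14.1% of the genes. The members' median difference was 17.7-fold towards bone marrow against fetal liver, 40.1-fold towards bone marrow against adult liver, and 3.08-fold towards fetal liver against adult liver. The last of these, 1.62 on the log2 scale over 4 members, lies between the value of Hdc and the lower bound of Cpa3. This median became 0.98 with normexp background. It turned to -0.20 when the filter on dim probes was dropped and all 7 members entered. Over all genes compared, the corresponding medians were 1.20-fold towards fetal liver, 1.06-fold towards adult liver and 1.04-fold towards fetal liver.

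A level here is the scanner's processed signal, which is the spot brightness after background subtraction, and the value after ± is the error that the scanner software estimated for that spot, not a spread between animals. For a difference, each signal was divided by its array's 75th percentile, which was 296.5 in adult liver, 386 in the fetal liver and 894.5 in bone marrow. In a tissue where a probe was not well above background, its level was taken as its own signal or the lowest signal of any spot well above background on that array, whichever was brighter; folds made in this way are bounds and carry the words "at least". That lowest signal was 18.9 on the adult liver array, 15 on the fetal liver array and 23.7 on the bone marrow array. Pairs of tissues with a dim probe on both sides have no fold. A median counts each bound at its value, so medians of the members and lists can rest on bounds. Signals of different probes are not compared with each other, since each probe binds its target with its own strength.

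**Figure D1:**
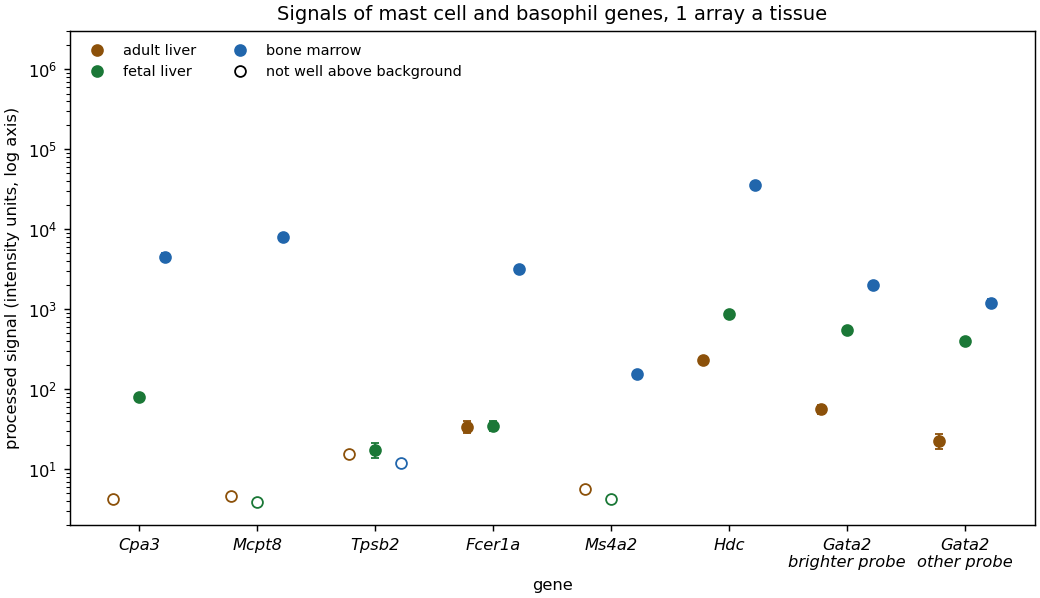
Processed signal (intensity units, log axis) of the 8 probes of the 7 genes on the arrays of the 3 tissues; open circles mark spots not well above background, and bars are the scanner's error of the spot for spots that were. The bone marrow point is the highest for 7 of the 8 probes, and Tpsb2 lies between 11.9 and 17.6 in all 3 tissues.

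The 3 arrays lay on the same slide and each held 45018 spots, of which 43379 were gene spots. Between 52.6% and 58.8% of the gene spots were well above background, 71 to 80 gene spots an array carried an outlier flag, and none was saturated. Among probes printed 10 times on an array, the median standard deviation of log2 signal between spots was 0.06 to 0.07, which measures spotting and scanning only. The tissue labels were set against marker genes. All 5 hepatocyte markers were well above background on both liver arrays, whereas in bone marrow 3 of them (Alb, Ttr and Apoa1) were not and the other two (Afp and Ahsg) read 326 and 74.2. The 6 erythroid markers were each within 4-fold between fetal liver and bone marrow, and all 6 were at least 4-fold higher in both than in adult liver. How far the members differ depends on the scale. With 8 spike-in control probes as the scale, the median of genes measured in both tissues moved from -0.25 to 2.07 on the log2 scale for bone marrow minus fetal liver, from -0.16 to 2.66 for bone marrow minus adult liver, and from -0.03 to 0.47 for fetal liver minus adult liver. The numbers of genes at least 4-fold higher in bone marrow and in fetal liver were then 7771 and 316, against 1218 and 1370 with the 75th percentile and 1579 and 1003 with the median as the scale. For bone marrow and adult liver they were 9613 and 849 with the spike-ins, against 2139 and 2676 with the 75th percentile and 2654 and 2209 with the median. For fetal and adult liver they were 2563 and 1501 with the spike-ins, against 1711 and 2007 with the 75th percentile. Under the spike-in scale 54.2% of genes were at least 4-fold higher in bone marrow than in fetal liver. These are bulk tissues, in which fewer cells of a type and less RNA per cell cannot be told apart.

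The promoters of the 5 genes that were at least 4-fold higher in bone marrow than in fetal liver are shown as the 250 bases before the RefSeq start of each gene. Gata2 encodes a factor that binds GATA sequences, and whether it acts on these 5 genes was not tested. The RefSeq promoter table held 6 of the 7 members, with 2 starts for Gata2, on build GRCm38.p6. The windows are chr1:173227230-173227479 for Fcer1a, chr19:11623720-11623969 for Ms4a2, chr3:20242182-20242431 for Cpa3, chr14:56085198-56085447 for Mcpt8 and chr2:126618679-126618928 for Hdc, all on the minus strand and printed 5′ to 3′ along the gene. Capitals mark GATA words, searched on both strands. The words with a leading A were AGATAA and the same word ending in G, which is AGATAG. Those with a leading T were TGATAA and, in the form ending in G, TGATAG.
Fcer1a: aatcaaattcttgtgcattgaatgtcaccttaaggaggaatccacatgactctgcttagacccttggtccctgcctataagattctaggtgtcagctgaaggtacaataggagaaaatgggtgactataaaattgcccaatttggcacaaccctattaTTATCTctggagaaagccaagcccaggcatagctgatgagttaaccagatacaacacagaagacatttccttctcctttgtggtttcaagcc
Ms4a2: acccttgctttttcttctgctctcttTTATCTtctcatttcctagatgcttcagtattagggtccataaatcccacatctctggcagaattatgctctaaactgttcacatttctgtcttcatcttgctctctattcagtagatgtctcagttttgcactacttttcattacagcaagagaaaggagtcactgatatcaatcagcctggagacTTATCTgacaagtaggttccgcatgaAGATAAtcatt
Cpa3: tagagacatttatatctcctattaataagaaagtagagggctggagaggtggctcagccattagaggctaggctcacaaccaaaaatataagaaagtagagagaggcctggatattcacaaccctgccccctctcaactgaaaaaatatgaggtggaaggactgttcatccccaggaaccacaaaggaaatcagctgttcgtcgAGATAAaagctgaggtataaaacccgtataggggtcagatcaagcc
Mcpt8: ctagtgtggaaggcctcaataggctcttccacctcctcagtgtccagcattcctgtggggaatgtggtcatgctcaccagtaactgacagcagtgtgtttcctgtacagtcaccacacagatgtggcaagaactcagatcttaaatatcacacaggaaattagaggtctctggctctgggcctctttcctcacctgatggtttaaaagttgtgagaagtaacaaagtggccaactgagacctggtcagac
Hdc: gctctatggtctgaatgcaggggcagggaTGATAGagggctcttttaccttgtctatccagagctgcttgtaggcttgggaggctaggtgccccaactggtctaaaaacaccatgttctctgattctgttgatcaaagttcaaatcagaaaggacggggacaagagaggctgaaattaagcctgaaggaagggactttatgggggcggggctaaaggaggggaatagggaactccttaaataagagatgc
The Ms4a2 window held 3 GATA words, at 224 to 219, 37 to 32 and 11 to 6 bases before the start. The windows of Cpa3 (46 to 41 bases before the start), Fcer1a (92 to 87) and Hdc (221 to 216) held 1 each, and the Mcpt8 window held none of these letters. Of all 32851 promoter windows of this length, 26.5% held at least 1 such word. An E-box of the letters CATGTG or CACGTG was found in the Fcer1a window alone, 208 to 203 bases before the start, and 17.6% of all windows held one. The RUNX word TGTGGT was found 2 times in the Mcpt8 window and 1 time each in those of Fcer1a and Cpa3, beside 14% of all windows; these 3 sets of letters do not overlap where they occur here. Both Gata2 windows, chr6:88193641-88193890 and chr6:88198414-88198663 on the plus strand, held none of the 3 kinds of word, and their GC contents were 67.2% and 74.0%, against 38.8% to 48.8% in the 5 windows printed. A match of letters describes the sequence and was not measured as a binding site.

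The IgE receptor is built from an alpha chain that binds IgE, a beta chain that amplifies the signal, and a gamma chain that many other receptors share. Fcer1a, the alpha chain, was read by probe A_51_P429770 (mm9 chr1:175152865-175152924, minus strand) and gave 34.2 ± 5.51 in adult liver, 35.2 ± 4.90 in the fetal liver and 3190 ± 319 in bone marrow. Bone marrow stood far above both livers, 39.1-fold over fetal liver (5.29 on the log2 scale, spot error 0.25) and 30.9-fold over adult liver (4.95, spot error 0.27). These log2 differences ran from 3.96 with normexp background to 7.61 with the spike-in scale over fetal liver, and from 3.60 to 7.77 over adult liver. The livers were next to each other: adult liver was 1.265-fold higher than fetal liver, a log2 difference of -0.34 for fetal minus adult liver with a spot error of 0.31, and with the spike-in scale the sign turned to 0.16. The probe was well above background on all 3 arrays, though in fetal liver 1 of 153 negative control spots read as high or higher. Probe positions are those of the array design, and whether they lie in coding exons or untranslated regions is not analysed here.

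Ms4a2, the beta chain and the part of the receptor that mast cells and basophils add to it, was read by probe A_51_P234975 (mm9 chr19:11691778-11691837, minus strand). It gave 5.61 ± 5.59 in adult liver and 4.25 ± 4.24 in fetal liver, both not well above background, and 154 ± 16.7 in bone marrow. Bone marrow was therefore the only tissue in which this chain was measured, at least 4.43-fold over fetal liver and at least 2.70-fold over adult liver. The fetal liver bound is near the 4-fold mark, and its log2 value of 2.15 became 0.31 with normexp background correction and 0.80 in the authors' normalized column, both under that mark. That column holds the scanner's spot error divided by a constant for each array, not a signal. With the spike-in scale the fetal liver bound was 4.47. The adult liver bound, 1.43 on the log2 scale, became 0.04 in the authors' normalized column and 4.25 with the spike-in scale, and normexp background gave no value for it. Fcer1g, the shared gamma chain, gave 1100 in adult liver, 1560 in the fetal liver and 43800 in bone marrow, which was 12.1-fold over fetal liver and 13.2-fold over adult liver.

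Below the receptor, the fixed list of 15 receptor and signalling genes had 7 genes at least 4-fold higher in bone marrow than in fetal liver and 0 in the other direction, with a median of 3.42-fold towards bone marrow. Over all genes compared, 8.3% and 9.33% passed 4-fold in these directions. The 7 included Fcer1g, Syk and Plcg2. Syk, the kinase recruited by the phosphorylated gamma chain, gave 86.4, 387 and 5270 in adult liver, fetal liver and bone marrow, which was 5.88-fold higher in bone marrow than in fetal liver. Plcg2, a phospholipase that starts the calcium signal, gave 394, 3050 and 40300 in the same order, 5.70-fold higher in bone marrow. Most of these signalling genes are used by B cells, platelets and phagocytes as well. Against adult liver, 10 of 14 genes compared were at least 4-fold higher in bone marrow and 2 in adult liver. Over all genes compared, the shares were 15% and 18.8%.

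Among the granule proteases, Cpa3 encodes carboxypeptidase A3, a secretory granule exopeptidase of mast cells that basophils and their progenitors also express. Its probe A_51_P214127 (mm9 chr3:20115674-20115733, minus strand) gave 4.32 ± 4.30 in adult liver, not well above background, 79.9 ± 8.63 in the fetal liver and 4550 ± 455 in bone marrow. The 3 tissues were thus in the order bone marrow, fetal liver, adult liver. Bone marrow was 24.6-fold over fetal liver (4.62 on the log2 scale, spot error 0.21) and at least 79.8-fold over adult liver. The log2 differences ran from 3.94 with normexp background to 6.94 with the spike-in scale over fetal liver, and from 4.598 to 9.14 over adult liver. Fetal liver was at least 3.25-fold over adult liver, under the 4-fold mark. This difference passed the mark with the spike-in scale (2.19 on the log2 scale). It also passed without a background filter and with positive and significant spots as the mark of a measured probe (3.83 each). It fell to 0.65 with normexp background and to 0.64 in the authors' normalized column. In fetal liver 0 of 153 negative control spots read as high as Cpa3 did.

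Mcpt8 encodes mast cell protease 8, which despite its name is a granule protease typical of mouse basophils. Its probe A_51_P413059 spans 375 bases of the genome with a gap between its aligned ends (mm9 chr14:56702300-56702674, minus strand), whereas the other members' probes align over 60 bases. It gave 4.61 ± 4.59 in adult liver, 3.88 ± 3.63 in the fetal liver and 7930 ± 793 in bone marrow, and neither liver signal was well above background. Bone marrow was at least 228-fold over fetal liver and at least 139-fold over adult liver, the highest lower bounds among the members in both comparisons. Over the alternatives the values ran from 5.60 to 10.2 and from 5.28 to 9.94 on the log2 scale.

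Tpsb2 encodes mast cell protease 6, a tryptase stored in the granules of connective tissue mast cells. Its probe A_52_P254155 (mm9 chr17:25504458-25504517, plus strand) gave 15.5 ± 4.58 in adult liver, 17.6 ± 3.75 in the fetal liver and 11.9 ± 5.28 in bone marrow, and only the fetal liver spot was well above background. The fetal liver signal was at least 1.72-fold over bone marrow, and for both other pairs no fold could be given. Negative control spots read as high or higher in 3, 1 and 6 of 153 cases in adult liver, fetal liver and bone marrow. Tpsb2 was the only member that was not highest in bone marrow, and its 3 signals lay close to the lowest signals that the arrays measured.

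**Figure D2:**
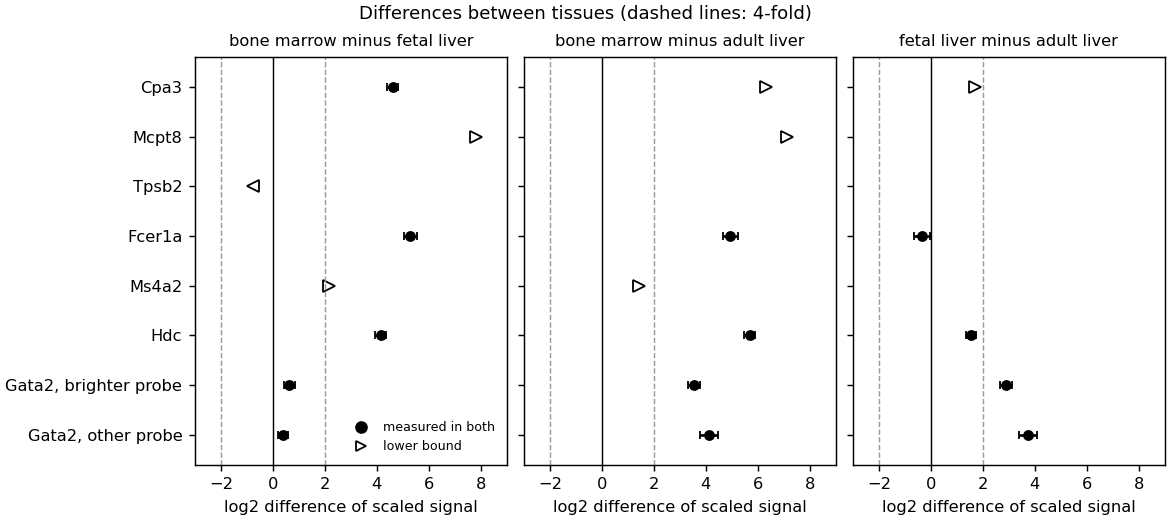
Log2 differences of scaled signal between tissues for the 8 probes; circles are measured in both tissues with the spot error as bars, triangles are lower bounds that point away from the dimmer tissue, and dashed lines mark 4-fold. Mcpt8 has the highest bound in both bone marrow comparisons, the Gata2 probes lie within 4-fold between bone marrow and fetal liver, and Tpsb2 has a value only in the first panel.

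Mcpt8 and Tpsb2 belong to gene clusters, which allowed their neighbours to be read. On chromosome 14, Mcpt8 lies among chymase and granzyme genes, of which Mcpt1, Mcpt2, Mcpt9 and Mcpt4, all mast cell proteases, were not well above background in any tissue. Mcpt4, a chymase of connective tissue mast cells, gave 4.91, 3.79 and 5.88 in adult liver, fetal liver and bone marrow. Cma1, which encodes the chymase mast cell protease 5, gave 12.1 in adult liver, not well above background, 36.8 in the fetal liver and 145 in bone marrow, and was 1.70-fold higher in bone marrow than in fetal liver. The second probe of Cma1 was dim in all 3 tissues, so this gene rests on 1 of its 2 probes. Its neighbour Cma2 gave 4.56, not well above background, 33.0 and 185. Ctsg, cathepsin G, next to Mcpt8 on the other side, gave 79.2, 1640 and 135000, which was 35.5-fold higher in bone marrow than in fetal liver; it is a granule protease of neutrophil precursors as well as of mast cells. The granzyme genes beyond it were dim in all 3 tissues apart from Gzmb, which gave 134 in bone marrow and was not well above background in either liver.

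In the tryptase cluster on chromosome 17, the genes differed in the tissue where they were measured. Prss34, which encodes mast cell protease 11, a tryptase of basophils, gave 35.9 in adult liver, 67.0 in the fetal liver and 31400 in bone marrow, which was 202-fold over fetal liver and 290-fold over adult liver. Tpsab1, the mast cell protease 7 gene that the RefSeq table lists as a transcribed pseudogene in this strain's reference, gave 4.25, 3.88 and 5.06 and was not well above background in any tissue. Prss29, a serine protease gene of the cluster that is on no companion list, was measured in adult liver alone, with 92.7 there and 17.4 and 22.7 in fetal liver and bone marrow; adult liver was at least 6.94-fold over fetal liver and at least 11.8-fold over bone marrow. Tpsg1, a membrane-anchored tryptase, gave 5.16 in adult liver, 47.6 in the fetal liver and 6.00 in bone marrow. Fetal liver was the only tissue where Tpsg1 was measured, at least 4.65-fold over bone marrow. The brightest of the 153 negative control spots on the fetal liver array read 48, above Tpsg1. Tpsg1 was the 1 gene of all companion lists that passed 4-fold towards fetal liver in this comparison. It missed that mark with the median (-1.80 on the log2 scale, bone marrow minus fetal liver) and quantile (-1.74) scales, and the spike-in scale gave it no value. Of the 10 proteases of the list that were on the array, 5 could be compared between these tissues. Ctsg and Prss34 passed 4-fold towards bone marrow and Tpsg1 towards fetal liver, beside 8.3% and 9.33% of all genes compared. The list's median was the lower bound of Gzmb, at least 3.86-fold towards bone marrow.

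**Figure D3:**
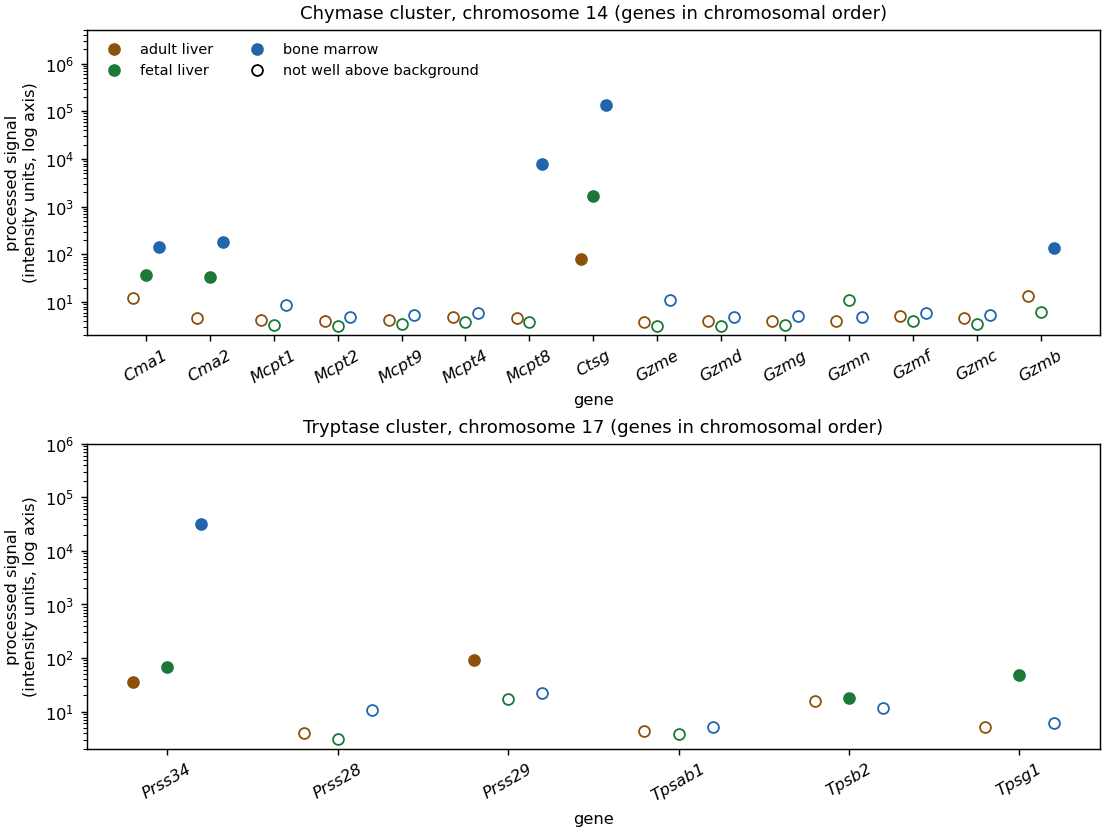
Processed signal (intensity units, log axis) of the genes of the chymase cluster on chromosome 14 and the tryptase cluster on chromosome 17 in chromosomal order in the 3 tissues; open circles are not well above background. Mcpt8 and Ctsg in the first cluster and Prss34 in the second stand out in bone marrow, while Mcpt4, Tpsab1 and Tpsb2 do not, and Prss29 is well above background in adult liver alone.

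Hdc encodes histidine decarboxylase, the enzyme that makes histamine. Its probe A_51_P254656 (mm9 chr2:126419516-126419575, minus strand) gave 230 ± 23.5 in adult liver, 876 ± 87.6 in the fetal liver and 36000 ± 3600 in bone marrow, all well above background. The order was bone marrow, fetal liver, adult liver, with every step larger than its spot error. Bone marrow was 17.7-fold over fetal liver (4.15 on the log2 scale, spot error 0.20) and 51.9-fold over adult liver (5.70, spot error 0.21), and fetal liver was 2.93-fold over adult liver (1.55, spot error 0.21). With the spike-in scale the log2 differences of bone marrow became 6.47 from fetal liver and 8.51 from adult liver. The partners of histamine were mixed. Slc18a2, the vesicle transporter that loads histamine into granules, gave 4.89 in adult liver, not well above background, 74.7 in the fetal liver and 256 in bone marrow, 1.48-fold higher in bone marrow than in fetal liver. Hnmt, which inactivates histamine by methylation, gave 1710 in adult liver, 9.61 in fetal liver, not well above background, and 1780 in bone marrow. Hnmt was thus the gene of this group that was low in fetal liver alone. Bone marrow was at least 51.2-fold and adult liver at least 148-fold over fetal liver. After scaling, adult liver was 2.90-fold over bone marrow, and this difference turned towards bone marrow with the spike-in scale (1.28 on the log2 scale).

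The mediator genes around Hdc were mostly towards bone marrow. Of 18 granule, histamine and mediator genes, 15 could be compared between bone marrow and fetal liver. Of these, 8 were at least 4-fold higher in bone marrow and 0 in fetal liver, beside 8.3% and 9.33% of all genes compared. The median was 4.13-fold towards bone marrow. Alox5, the lipoxygenase that starts leukotriene synthesis, gave 14.9 in adult liver, not well above background, 255 in the fetal liver and 15600 in bone marrow, 26.4-fold over fetal liver. Alox5ap, its activating protein, gave 256, 991 and 70100, 30.5-fold over fetal liver. Srgn, the proteoglycan core of the granules, Cd63 and Rab27a were 10.3-fold, 10.3-fold and 11.5-fold higher in bone marrow than in fetal liver. Neutrophils and macrophages also express these 5 genes. The prostaglandin synthase gene Ptgs2, the serotonin synthesis gene Tph1 and the diamine oxidase gene Aoc1 were not well above background in any tissue.

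Gata2 encodes a zinc finger transcription factor of stem and progenitor cells, which mast cells and basophils keep. It was the member with a different pattern. Its brighter probe A_51_P516625 (mm9 chr6:88156835-88156894, plus strand) gave 56.8 ± 7.61 in adult liver, 554 ± 55.5 in the fetal liver and 2000 ± 201 in bone marrow. The second probe A_52_P233441 (mm9 chr6:88156362-88156421, plus strand) gave 22.9 ± 4.96, 402 ± 40.3 and 1220 ± 123 in the same order. In adult liver 1 of 153 negative control spots read as high as this second probe or higher. Both probes ranked the tissues alike and put fetal liver near bone marrow. Bone marrow was 1.56-fold over fetal liver by the first probe (0.64 on the log2 scale, spot error 0.20) and 1.31-fold by the second (0.39, spot error 0.21). Over adult liver, bone marrow was 11.7-fold and 17.7-fold higher and fetal liver was 7.49-fold and 13.5-fold higher by the first and second probe. With the spike-in scale the bone marrow difference from fetal liver became 2.96 on the log2 scale and passed the 4-fold mark, and with normexp background the fetal liver difference from adult liver became 1.90 and no longer passed it. The bone marrow difference from adult liver ran from 2.60 with normexp background to 6.36 with the spike-in scale.

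Transcription factors beside Gata2 were read from a list of their own. Of 18 that could be compared between bone marrow and fetal liver, 2 (Spi1 and Irf8) were at least 4-fold higher in bone marrow. In the other direction the count was 0, and the median was 1.06-fold. Over all genes compared, 8.3% and 9.33% passed 4-fold in these directions. Gata1, which mast cells share with red cells and platelets, gave 42.7 in adult liver, 3248 in the fetal liver and 4426 in bone marrow, 1.70-fold higher in fetal liver than in bone marrow, where the sign turned with the spike-in scale (1.56 on the log2 scale, towards bone marrow). Mitf, a factor that mast cells need for survival, gave 90.7, 63.0 and 86.5 by its measured probe, 1.69-fold higher in fetal liver than in bone marrow (1.57 towards bone marrow on the log2 scale with the spike-ins), and its second probe was measured in bone marrow only. Spi1, the factor PU.1 of myeloid cells and B cells, gave 3.88 and 4.58 in adult and fetal liver, both not well above background, and 718 in bone marrow, at least 20.7-fold over fetal liver. Irf8, a factor of monocyte and basophil progenitors, gave 607, 1090 and 21200, 8.39-fold over fetal liver. Cebpb, a factor of basophils and other myeloid cells, was 3.56-fold higher in bone marrow than in fetal liver by its brighter probe. By its other probe it was 4.39-fold higher, past the mark, so its place outside the count depends on the probe. Against adult liver, 8 of these 18 genes were at least 4-fold higher in bone marrow and 2 (Cebpa and Bhlhe40) were at least 4-fold lower. Over all genes compared, these shares were 15% and 18.8%. Between the livers, 7 of 17 passed 4-fold towards fetal liver and 3 (Cebpa, Cebpb and Bhlhe40) towards adult liver. The shares over all genes compared were 12.1% and 14.1%.

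Surface receptors were the companion list with the highest median difference between bone marrow and fetal liver. Of 17 compared, 11 were at least 4-fold higher in bone marrow and 0 in fetal liver, with a median of 8.76-fold. Over all genes compared, 8.3% and 9.33% passed 4-fold in these directions. Kit, the stem cell factor receptor of mast cells and of progenitors, was an exception: it gave 74.5 in adult liver, 599 in the fetal liver and 1348 in bone marrow, and was 1.03-fold higher in fetal liver than in bone marrow. Its log2 difference of -0.04 turned to 0.37 with the median and 2.28 with the spike-ins as the scale. Pilra, a paired inhibitory receptor of myeloid cells, gave 95, 31.8 and 9010, 122-fold over fetal liver. The second Pilra probe was measured in bone marrow only and gave at least 25.2-fold over fetal liver. Ccr3, the eotaxin receptor of basophils and eosinophils, gave 53.3, 33.8 and 1460, 18.6-fold over fetal liver. That fold rests on 1 of its 2 probes. The other was measured in bone marrow only and gave at least 1.15-fold over fetal liver. Ccr2, a chemokine receptor of monocytes and basophils, gave 17.7 in adult liver, not well above background, 108 in the fetal liver and 4340 in bone marrow, 17.3-fold over fetal liver. Cd200r3, an activating receptor of mouse basophils and mast cells, gave 45.2 in adult liver, 9.60 in fetal liver, not well above background, and 559 in bone marrow, at least 16.1-fold over fetal liver; it was singled out after its values were seen. The 2 receptors of mature connective tissue mast cells on the list, Mrgprb1 and Mrgprb2, were not well above background in any tissue.

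The ligands of these receptors gave few measured values. Of 10 growth factor and cytokine genes, 6 could be compared between bone marrow and fetal liver, with a median of 1.37-fold. At least 4-fold higher were 2 (Il4 and Tnf) in bone marrow and 0 in fetal liver, beside 8.3% and 9.33% of all genes compared. Kitl, stem cell factor, gave 21.8 in adult liver, 317 in the fetal liver and 370 in bone marrow, 1.98-fold higher in fetal liver than in bone marrow, by 1 of its 2 probes; the other was dim in all 3 tissues. Il33, an alarmin that acts on mast cells and basophils, gave 145, 64.5 and 38.9 and was 3.84-fold higher in fetal liver than in bone marrow. With the spike-in scale both turned towards bone marrow, Kitl to 1.34 and Il33 to 0.38 on the log2 scale. Il4, a cytokine that basophils make, gave 25.3, 39.1 and 504, 5.60-fold higher in bone marrow than in fetal liver. Tnf gave 10.8 and 18.3 in adult and fetal liver, both not well above background, and 224 in bone marrow, as means of 10 spots. Il3, the growth factor of basophils, was not well above background in any tissue.

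**Figure D4:**
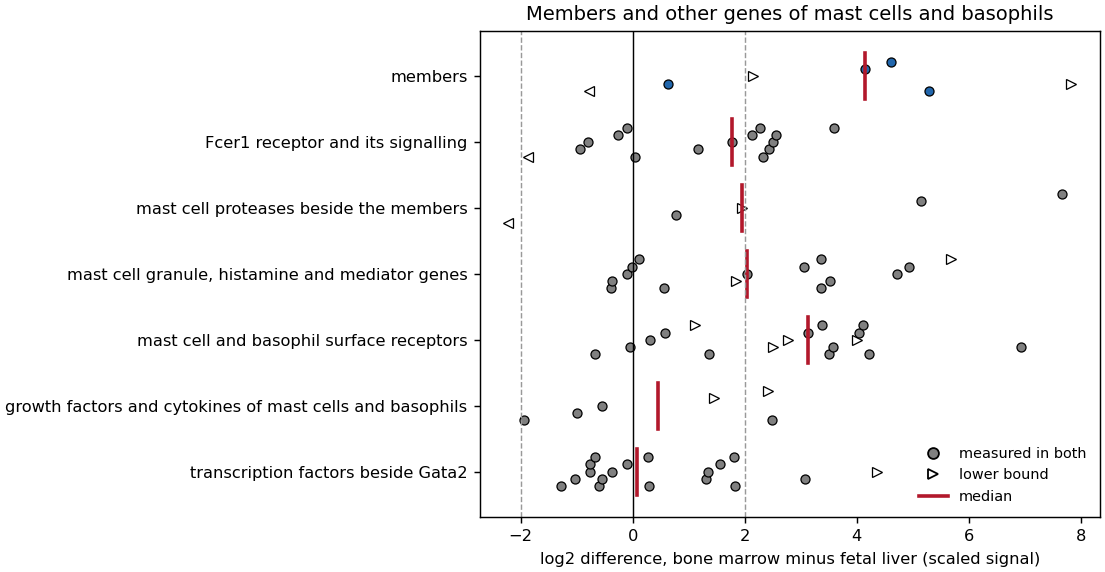
Log2 difference of scaled signal, bone marrow minus fetal liver, for the 7 members (upper row) and the genes of the 6 companion lists; circles are measured in both tissues, triangles are lower bounds, red bars are medians with bounds counted at their bound, and dashed lines mark 4-fold. The members' median is 4.15 and the lists' medians run from 0.08 for transcription factors to 3.13 for surface receptors.

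Over the 6 lists together, 76 of 90 companion genes on the array could be compared between bone marrow and fetal liver. Of these, 32 were at least 4-fold higher in bone marrow and 1 in fetal liver, beside 8.3% and 9.33% of all genes compared. The median was 2.85-fold towards bone marrow. Against adult liver, 43 of 74 were at least 4-fold higher in bone marrow and 6 in adult liver, beside 15% and 18.8%. The median was 6.33-fold towards bone marrow. Between the livers, 19 of 68 were at least 4-fold higher in fetal liver and 7 in adult liver, beside 12.1% and 14.1%. Fetal liver was 1.72-fold higher at the median. The comparisons with bone marrow share its 1 array. Mcpt10, Cd200r4 and Cebpe were on the lists but not analysed here.

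The receptor, protease and histamine genes are not the property of a single cell type, and markers of other marrow cells moved with them. All 6 eosinophil markers read were at least 4-fold higher in bone marrow than in fetal liver, and their summed scaled level was 0.26 in adult liver, 1.23 in the fetal liver and 480 in bone marrow. All 9 neutrophil markers were as well, with summed levels of 2.78, 147 and 1834. All 5 B cell markers were also higher, with sums of 1.26, 1.64 and 68.6. Over all genes compared, 8.3% were at least 4-fold higher in bone marrow than in fetal liver and 9.33% in fetal liver. Over adult liver, 15% passed 4-fold towards bone marrow and 12.1% towards fetal liver. Megakaryocyte markers moved as Gata2 did: 0 of 6 passed 4-fold between bone marrow and fetal liver, all 6 were at least 4-fold higher in both than in adult liver, and their sums were 1.41, 158 and 168. The 6 erythroid markers had the same counts, with sums of 1.26, 607 and 355. The stem and progenitor markers, which include Kit, had 1 of 8 at least 4-fold higher in bone marrow (Ly6a) and 1 in fetal liver (Hlf), with sums of 6.86, 19.7 and 21.4. The macrophage markers had 3 of 6 at least 4-fold higher in bone marrow than in fetal liver and 1 (Clec4f) in fetal liver, with sums of 28.3, 6.51 and 27.5. The 4 endothelial markers that passed 4-fold were all higher in fetal liver. In adult liver 1 of 6 eosinophil markers and 2 of 9 neutrophil markers were well above background, while Epx and Mpo were not. Each summed level adds probes of unlike binding strength, dim ones included. Its brightest probes therefore weigh most, and it is not an amount of cells. The part of these cell types in the members' differences was not tested.

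The 3 members well above background in all 3 tissues were also set beside every other gene with that property, 11685 genes in all, by the Euclidean distance between their 3 log2 levels after each gene's mean was removed. The genes nearest to Fcer1a were Tnfrsf18 (distance 0.10), Pilrb2 (0.11) and Hk3 (0.12), which were 35.5-fold, 37.1-fold and 37.5-fold higher in bone marrow than in fetal liver. Nearest to Hdc were Selplg (0.12), Gpr160 (0.14) and Mapk13 (0.18), which were 48.1-fold, 58.8-fold and 61.9-fold higher in bone marrow than in adult liver. Nearest to Gata2 were H2az1 (0.07), Fzr1 (0.09) and Hk2 (0.10), which were 7.47-fold, 7.37-fold and 6.86-fold higher in fetal liver than in adult liver. Over 3 tissues such a likeness has few points behind it and is a description of these arrays.

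Across the alternatives of scale, background, filter and source, the 4 members Cpa3, Mcpt8, Fcer1a and Hdc were at least 4-fold higher in bone marrow than in fetal liver under 10 of 10 settings, the reported one included. Not all of these settings could move them. Each of the 4 has 1 probe without a flag, so the probe-mean and outlier settings returned the reported value. For Cpa3, Fcer1a and Hdc, well above background in both tissues, the filter settings did so too. The authors' column holds scaled errors, not signals. Ms4a2 passed 4-fold under 8 of them, and Gata2 under 1. Tpsb2 was below 0, towards fetal liver, under the 9 settings that gave it a value.

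**Figure D5:**
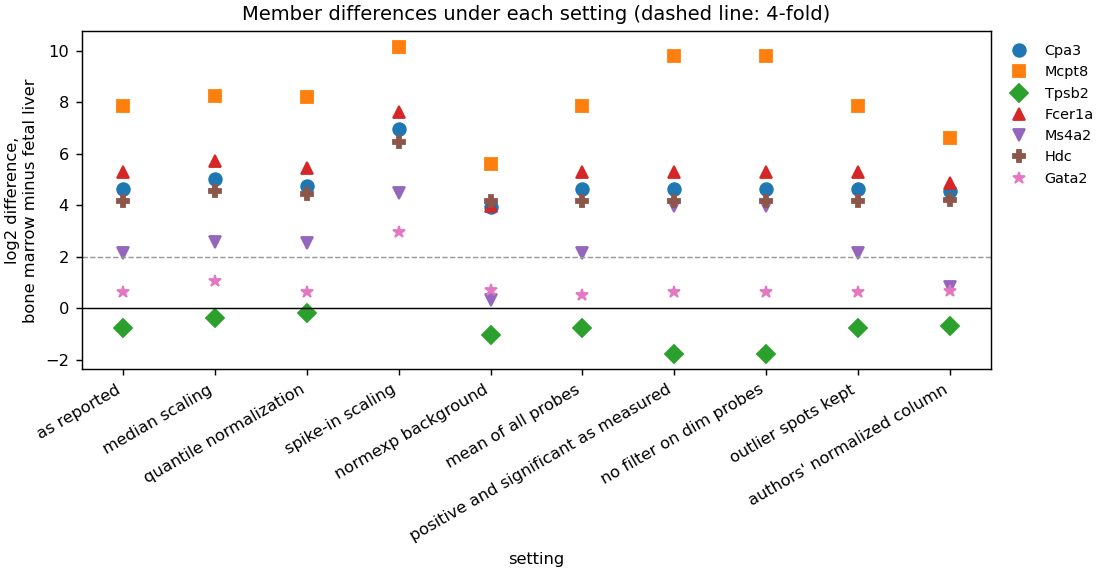
Log2 difference, bone marrow minus fetal liver, of the 7 genes as reported and under 9 other settings; each symbol is 1 gene, and the dashed line marks 4-fold. Mcpt8, Fcer1a, Cpa3 and Hdc lie above the line in every column, Ms4a2 lies below it with normexp background and in the authors' normalized column, and Tpsb2 lies below 0 where it has a value.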

How the data were processed

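RNA of 3 mouse tissues was read on 1-colour Agilent arrays, 1 a tissue. Per the file headers, Agilent Feature Extraction 10.5.1.1 made the deposited intensity values: a processed signal (background subtracted, with a substitute value for dim spots), its error, the mean spot signal and the local background. The authors also deposited a table for the whole series with a raw intensity, a normalized ratio and a fold over adult liver for each array. Its raw column equalled the error of the processed signal, not the signal, within 1% on all 45018 spots of each array, and the normalized ratio is that column divided by 29.3, 37.8 and 85.3 in adult liver, fetal liver and bone marrow. The scanner files were therefore the source here, and the table is an alternative.

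Log2 processed signals were reduced by their array's 75th percentile over gene spots. Control spots and outlier-flagged spots were left out, spots of a probe were averaged, and the probe well above background on most arrays, then the brightest, represented a gene. Of 41174 probes, 24844 were named through their accession, 6045 through the symbol and 1796 through a synonym in the RefSeq table, and 8489 stayed unnamed. No test fits 1 array a group, so folds of at least 4 are counted and set beside all genes. The functions were tested on simulated data. The members and gene lists were chosen with earlier results of these data known. All 7 members are named. From each companion list, the rule named the 3 largest differences between bone marrow and fetal liver, every gene over 4-fold higher in fetal liver, and 10 genes (Kit, Kitl, Fcer1g, Gata1, Mitf, Cma1, Mcpt4, Tpsab1, Prss34, Slc18a2) whatever their values. Other genes named were chosen after their values were seen. For each member measured on all 3 arrays, the rule also named the 3 genes of nearest pattern. Alternatives were other scales (median, quantile, spike-ins), normexp background with an offset of 50 (limma 3.58.1, R 4.3.3), other probe, filter, outlier and fold rules (2-fold and 8-fold), and the authors' normalized column. Python 3.11.15, numpy 2.4.6, pandas 2.3.3 and matplotlib 3.10.9 were used. The number of arrays, 1 a tissue, limits the precision.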

Additional observations from a re-analysis of the deposited data

How the results depend on the processing

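Of 66 counts of members recomputed under 11 alternatives, 60 stayed within 1.5 times the reported count. The other 6 were all of members at least 4-fold higher in fetal liver than in adult liver, reported as 1 (Gata2). They were 3 with the spike-in scale, 0 with normexp background and 2 with positive and significant spots as the mark of a measured probe. The count was 2 with no filter on dim probes, 3 with a 2-fold mark and 0 with an 8-fold mark. Over all genes compared, the shares under these settings were, in the same order, 17.7%, 7.91%, 13%, 11%, 27% and 5.96%, against 12.1% as reported. The changes with the fold mark follow from the mark itself. For the others the cause was not tested. No member spot carried a flag and only Gata2 had a second probe, so the outlier and probe-mean alternatives could move few values. The count for bone marrow over fetal liver ran from 4 to 6 and that for bone marrow over adult liver from 5 to 6. With the spike-in scale both were 6, beside 54.2% of all genes compared over fetal liver and 66.1% over adult liver. With normexp background they were 4 and 5, beside 5.87% and 11.2%. Of 178 log2 differences of members and their medians, 0 of those past 4-fold changed sign. Below 4-fold, the difference of Fcer1a between the livers turned sign with the spike-in scale, and the members' median between the livers, 1.62, became -0.20 with no filter, where dim probes enter at their substitute values. Folds of Mcpt8, Ms4a2 and, against adult liver, Cpa3 rest on background: Ms4a2 over fetal liver ran from 0.31 to 4.47 on the log2 scale and Mcpt8 from 5.60 to 10.2. No paired analysis was possible because each tissue has 1 array. Leaving out an array removes its tissue, so no such setting was run.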
